A study of Mus musculus with 2 samples.

Results

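The carbonic anhydrase genes Car1, Car2, Car3, Car4, Car8, Car9, Car12 and Car13 were compared between grafted mouse small intestinal epithelium and normal mouse colonic epithelium. The 8 genes were chosen by name, each through its brightest probe set annotated to exactly 1 gene symbol, and they are 8 of the 17305 genes measured in this way. Of the 16 mouse carbonic anhydrase genes listed for the comparison, 14 were measured, each by 1 probe set, and the 6 beside the chosen 8 are Car5a, Car7, Car10, Car11, Car14 and Car15.

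The graft came from small intestinal epithelial cells of EGFP-transgenic mice on the C57BL6 background, which were cultured for 7 days as organoids, epithelial cultures that contain stem cells. The organoids were instilled into the colonic lumen of C57BL6 recipients and the engrafted epithelium was cut out by laser microdissection 4 weeks later. The control was microdissected colonic epithelium of a C57BL6 mouse without a graft, and no ages are given in the labels. Each group was 1 array, made from 4.33 ng of total RNA that had been pooled over serial sections and amplified, and each sample was picked from its kind for the highest RNA integrity. No difference therefore has a replicate check, no p-value is given, and every value describes these 2 samples. Ungrafted small intestine was not analysed here, so tissue of origin and grafting cannot be told apart.

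Carbonic anhydrases are zinc enzymes that interconvert CO2 and water with bicarbonate and a proton. In intestinal epithelium the cytosolic enzymes supply protons and bicarbonate to the exchangers of the apical membrane, through which sodium and chloride are absorbed, and the membrane-bound enzymes work at the cell surface. The family is strongly regional in the gut, and colonic surface cells are a known site of cytosolic and apical forms.

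Levels are the log2 values deposited by the authors, and all differences are graft minus colon, so that a difference of 1 is 2-fold. A gene was counted if its higher value reached 5.48, the median of all gene values, which 7 of the 8 genes and 9392 genes in all did. The exception was Car3. Of the 8 genes, Car1, Car2 and Car4 (3 genes) lay at least 2-fold lower in the graft, against 5.68% of all counted genes, and 2 were at least 2-fold higher (Car8 and Car12), against 3.55%. At 4-fold, Car1 and Car2 were lower, against a background of 1.37%, and Car8 was higher, against 1.10%. The median difference of the 8 genes was 0.013 and that of all 17305 genes was 0, whereas the median absolute difference was 1.16 for the 8 genes and 0.14 for all genes. Over the genes that reached the median level it was 1.16 for the 7 members and 0.28 for all 9392. The 5 members past 2-fold went in both directions, and Car9, Car13 and Car3 stayed under 2-fold. The 8 genes were chosen with earlier results of these data known, so these counts and medians describe them and test nothing.

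The error of such a difference could be gauged only from genes with several probe sets. None of the 14 carbonic anhydrases has a second one with exactly 1 gene symbol. The differences of a gene's 2 brightest probe sets were compared where the higher value of each probe set reached that median. They disagreed with an SD of 0.55 at mean levels from 5 to 7 (203 genes), 0.50 from 7 to 9 (247 genes) and 0.29 from 9 upwards (136 genes). Of 41 such genes at least 2-fold apart by the brighter probe set, the second had the same direction for 36 and was also 2-fold apart for 17. This spread leaves out variation between animals and the error of amplification.

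**Figure D1:**
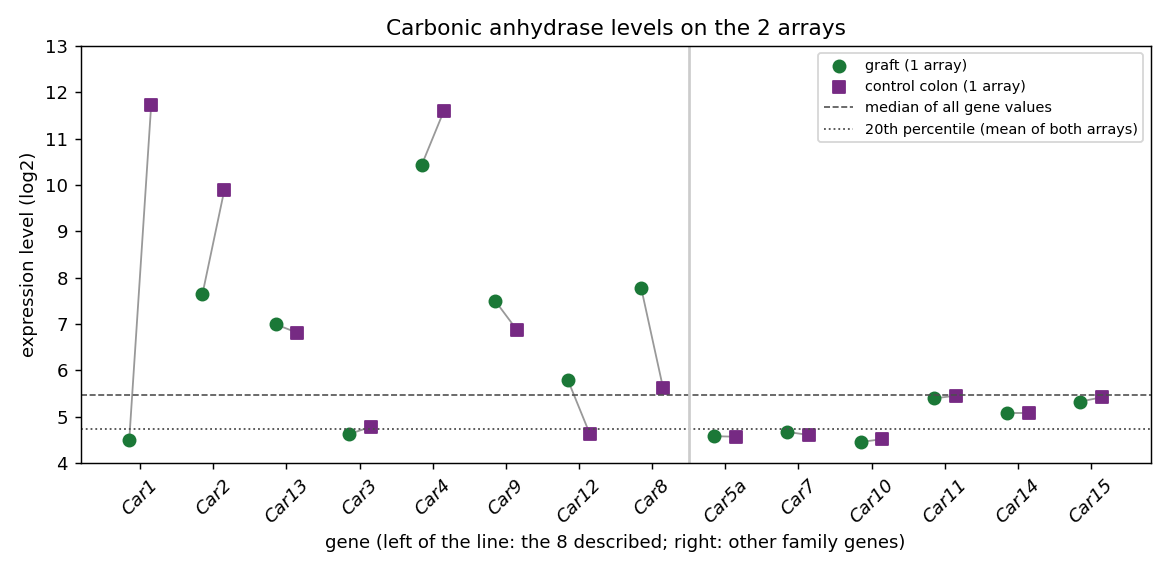
Expression level (log2) of the 14 measured carbonic anhydrase genes on the graft array (circles) and on the control colon array (squares), with lines joining the values of a gene. Car1, Car2 and Car4 slope upward from graft to colon, Car8 and Car12 slope downward, and the 6 genes on the right stay below the dashed median of 5.48 on both arrays.

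Among the cytosolic enzymes, Car1 and Car2 were lower in the graft, while Car13 and Car3 differed little. Car1, a low-activity form that is abundant in colonic epithelium and in red blood cells, had a level of 4.51 in graft epithelium and 11.74 in control colon. Its difference of -7.23 was the lowest of the 9392 counted genes. The graft value lay below the 20th percentile of its array, 4.75, a low cut set here. Without a detection call, signal cannot be separated from background there. Whether Car1 was above background in the graft is thus unknown, and its fold is not determined. With all values below the 20th percentile raised to it, the difference was -6.99.

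Car2, the fast and widely expressed cytosolic form, had a level of 7.64 in graft epithelium and 9.89 in control colon, a difference of -2.25 or 4.75-fold. This was rank 99 from the low end among the counted genes. Unlike that of Car1, the graft value of Car2 lay well above the 20th percentile. The difference is larger than the SD of 0.50 found between probe sets at its mean level.

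Car13, a cytosolic form found in several epithelia, was at 6.997 in graft epithelium and 6.81 in control colon. Its difference of 0.19 was within the SD of 0.55 between probe sets, so no difference was detectable. Car3, a form typical of skeletal muscle and fat, was at 4.62 in graft epithelium and 4.78 in control colon, at the low end of both arrays, with a difference of -0.16. Neither value can be read as expression there.

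**Figure D2:**
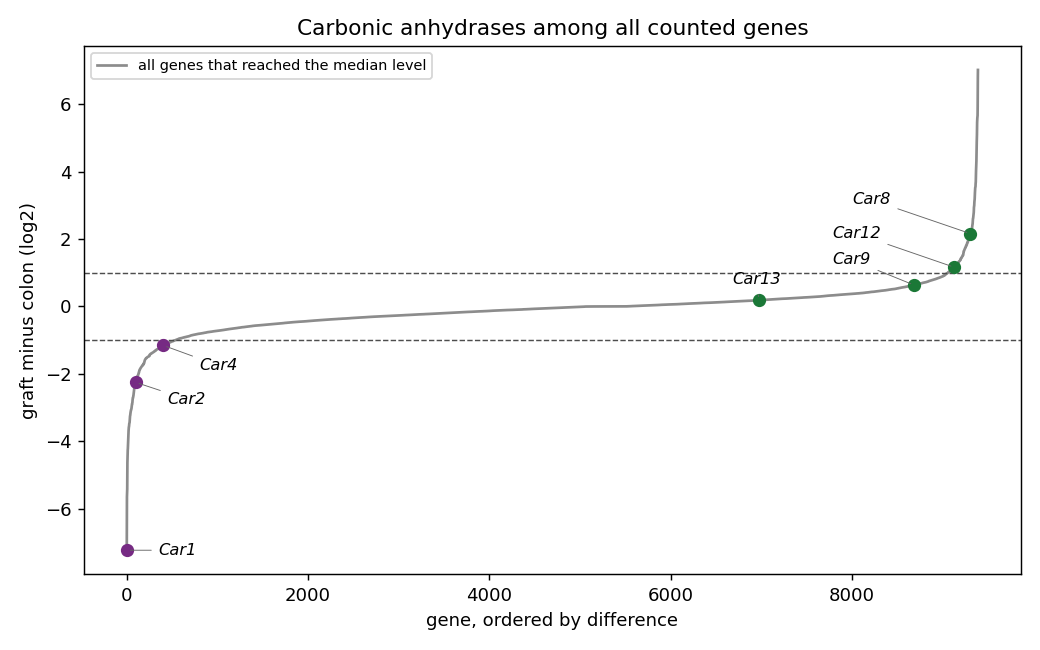
Difference between graft and colon (log2) of the 9392 genes that reached the median level, ordered from lowest to highest, with the 7 carbonic anhydrases among them marked and dashed lines at 2-fold. Car1 is the lowest of all, Car2 and Car4 lie at ranks 99 and 404 from the low end, and Car8 and Car12 at ranks 86 and 261 from the high end.

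The 4 cytosolic genes are neighbours. RefSeq's table for GRCm38.p6 has them follow each other as Car13, Car1, Car3 and Car2, with 0 other protein-coding genes between them. The values did not follow this order: Car1, at -7.23, stands between Car13 at 0.19 and Car3 at -0.16, and Car2, at -2.25, comes after Car3. On the Car13 side the nearest measured gene outside the family, Rbis, had levels of 5.65 in graft epithelium and 5.64 in control colon. Beyond Rbis, E2f5 was at 5.92 in graft epithelium and 6.55 in control colon. The next gene, Lrrcc1, was at 5.52 in graft epithelium and 6.82 in control colon. On the Car2 side, 4 protein-coding genes without a value precede Gm5150, which was at 4.92 in graft epithelium and 4.76 in control colon. Lrrcc1 was thus past 2-fold as well, with a difference of -1.29, while Rbis and Gm5150, the nearest measured genes on each side, had differences of 0.0046 and 0.16. Gm5150 stayed below the median level on both arrays, so its small difference does not show equal expression. These flanking genes were looked up after the family's values were known.

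**Figure D3:**
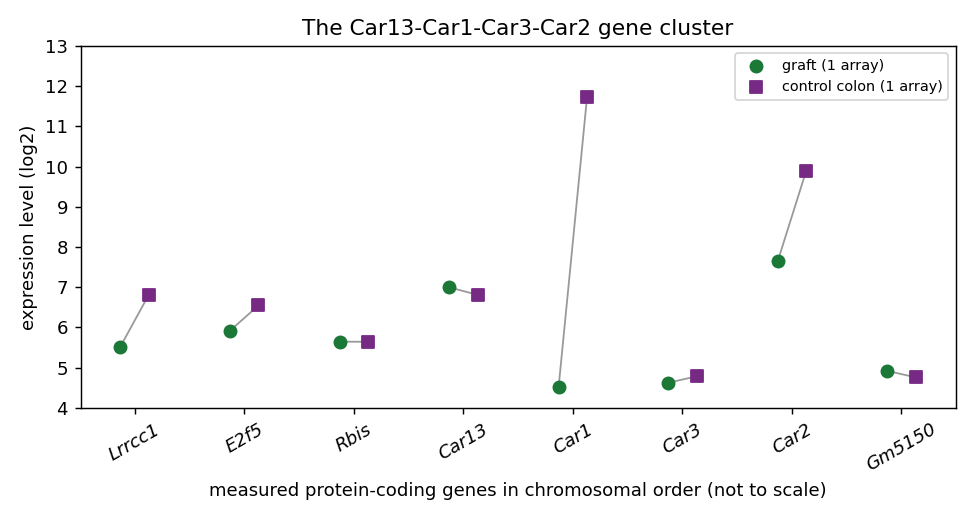
Expression level (log2) in the graft (circles) and in the control colon (squares) of the measured protein-coding genes around the Car13, Car1, Car3 and Car2 cluster, in chromosomal order and not to scale. Car1 and Car2 are lower in the graft, with Car3 between them near the low end on both arrays, and Rbis and Gm5150 have nearly equal values.

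Among the membrane-bound enzymes, Car4 was lower in the graft and Car12 was higher, while Car9 stayed under 2-fold. Car4 is held in the apical membrane by a glycolipid anchor. Its level was 10.44 in graft epithelium and 11.59 in control colon, both far above the 20th percentiles. The difference of -1.15, or 2.23-fold, was rank 404 from the low end and exceeded the SD of 0.29 between probe sets of that brightness.

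Car12, a transmembrane form with its catalytic domain outside the cell, was at 5.78 in graft epithelium and 4.62 in control colon. The difference was 1.16, or 2.24-fold. The colon value lay below the 20th percentile of 4.74, so the size of the difference is not determined, and it was 1.05 with such values raised to that percentile. The SD between probe sets at mean levels from 5 to 7 was 0.55. It was found over genes whose higher value reached the median, and its size for values below the 20th percentile was not examined separately.

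Car9, the other transmembrane form and a classical target of hypoxia-inducible transcription factors, was at 7.51 in graft epithelium and 6.88 in control colon. The difference of 0.63 was short of 2-fold and close to the SD of 0.50 between probe sets. Of 15 measured hypoxia-inducible genes, 1 passed 2-fold upward in graft epithelium and 0 downward, beside 3.55% and 5.68% of all counted genes. Their median difference was -0.080 beside 0 for all genes and -0.047 for the genes that reached the median level, as 14 of the 15 did. Of the 15, 8 were below 0. The gene that was higher was Egln3, an oxygen-sensing prolyl hydroxylase, at 9.82 in graft epithelium and 8.56 in control colon. Pfkfb3 was the next highest, at 0.85, of the 7 above 0. The glycolytic genes Ldha and Pgk1 had differences of 0.51 and 0.54, and the glucose transporter Slc2a1 of 0.084. Among the 8 below 0, the largest were Ankrd37 at -0.97, Ndrg1 at -0.71, Pdk1, a kinase that restrains pyruvate oxidation, at -0.58 and the prolyl hydroxylase Egln1 at -0.55.

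The bases before the start site are shown for the membrane-bound genes Car4, Car9 and Car12, the members for which RefSeq windows were at hand, since their differences point in different directions. Each is the 250 bases upstream of the start on the plus strand of GRCm38.p6, at chr11:84957504-84957753 for Car4, chr4:43506776-43507025 for Car9 and chr9:66713436-66713685 for Car12, and capitals mark matches to the motifs named after them.
Car4: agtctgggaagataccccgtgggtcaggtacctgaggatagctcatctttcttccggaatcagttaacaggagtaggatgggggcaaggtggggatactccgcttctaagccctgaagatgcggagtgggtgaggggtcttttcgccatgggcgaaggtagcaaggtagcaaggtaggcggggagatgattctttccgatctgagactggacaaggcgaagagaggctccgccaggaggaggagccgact
Car9: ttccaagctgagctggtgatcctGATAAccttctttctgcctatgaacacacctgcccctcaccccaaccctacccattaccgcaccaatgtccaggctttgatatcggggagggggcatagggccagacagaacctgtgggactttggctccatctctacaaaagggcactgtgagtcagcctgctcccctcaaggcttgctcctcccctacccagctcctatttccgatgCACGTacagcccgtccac
Car12: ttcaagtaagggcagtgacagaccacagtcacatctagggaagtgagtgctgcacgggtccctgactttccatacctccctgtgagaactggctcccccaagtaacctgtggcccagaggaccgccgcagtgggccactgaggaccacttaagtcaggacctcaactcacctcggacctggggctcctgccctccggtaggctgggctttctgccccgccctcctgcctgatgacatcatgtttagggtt

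The motifs searched on both strands were ACGTG, the core of the hypoxia response element, GATAA, a core bound by GATA factors, and TTTAT, a core bound by CDX factors. Of all 32851 RefSeq windows of this length, 16.6% hold ACGTG or its reverse complement, 22.6% hold GATAA or its reverse complement and 37.3% hold TTTAT or its reverse complement. The Car9 window holds CACGT, the reverse complement of the hypoxia core, from 18 to 14 bases before the start, and GATAA from 227 to 223 bases before it. The hypoxia core also lies inside the E-box CACGTG, which the Car9 match is not part of. The Car4 and Car12 windows hold none of the 3 motifs, which says only that these letters are not in these windows.

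Car8, the member without catalytic activity, was higher in the graft. It lacks a zinc-binding histidine of the active enzymes and is known as a binding partner of the inositol trisphosphate receptor in Purkinje cells. Its level was 7.78 in graft epithelium and 5.62 in control colon. The difference of 2.16, or 4.47-fold, was rank 86 from the high end of the counted genes and larger than the SD of 0.55 between probe sets. The 2 measured genes beside it on the chromosome were not higher in the graft, with differences of -0.78 for Tox and -0.52 for Rab2a.

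The 6 other measured carbonic anhydrases stayed below the median level on both arrays, and 0 of them differed by 2-fold. Their median difference was -0.030. The mitochondrial Car5a was at 4.58 in graft epithelium and 4.57 in control colon. Car7, a cytosolic form, was at 4.67 in graft epithelium and 4.61 in control colon. The acatalytic Car10 was at 4.46 in graft epithelium and 4.52 in control colon. All values of these genes lie below the 20th percentiles, where signal cannot be separated from background. The acatalytic Car11 was at 5.40 in graft epithelium and 5.46 in control colon. Car14, a transmembrane form, had a level of 5.08 on both arrays. The glycolipid-anchored Car15 was at 5.33 in graft epithelium and 5.42 in control colon. No detection call separates such levels from background, so the small differences do not show equal expression.

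Genes for the transporters that use the products of carbonic anhydrases went in both directions as well. Of 17 measured genes for bicarbonate and other anions, 3 passed 2-fold downward in graft epithelium and 1 upward, where 5.68% of all counted genes were lower and 3.55% higher. Their median was 0.067, and only 7 of them came up to the median level. Slc26a3, the chloride-bicarbonate exchanger of the colonic surface, was at 6.76 in graft epithelium and 10.90 in control colon. Slc26a2, a sulfate transporter, was at 6.97 in graft epithelium and 10.20 in control colon. The bestrophin anion channel Best2 was at 4.604 in graft epithelium, below the 20th percentile, and 6.78 in control colon. Slc26a6, an apical anion exchanger of the small intestine, was higher, at 7.16 in graft epithelium and 4.91 in control colon. The basolateral sodium-bicarbonate cotransporter Slc4a4 had a difference of -0.79, the anion exchanger Slc4a2 of 0.32 and the chloride and bicarbonate channel Cftr of 0.18.

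Of 10 measured genes for proton transport, 2 passed 2-fold downward in graft epithelium and 1 upward, beside the same 5.68% and 3.55% of all counted genes. Their median was -0.072, and only 5 of them reached the median level and could be counted. The potassium-transporting proton pump Atp12a was at 5.39 in graft epithelium and 9.51 in control colon. The 2 sodium-proton exchangers past 2-fold had opposite signs. Slc9a3, the main absorptive exchanger, was at 8.55 in graft epithelium and 6.80 in control colon, a difference of 1.75, whereas Slc9a2 was at 7.23 in graft epithelium and 8.62 in control colon, a difference of -1.40. The Slc9a3 scaffold gene Slc9a3r1 had a difference of -0.30, Slc9a8 of -0.24 and the gastric pump subunit Atp4b of 0.

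Of 6 genes for the uptake of short-chain fatty acids and other monocarboxylates, 1 passed 2-fold downward in graft epithelium and 0 upward, beside 5.68% and 3.55% of all counted genes. Their median was -0.0028, and only 4 of them reached the median level and could be counted. The sodium-coupled transporter Slc5a8 was at 5.72 in graft epithelium and 9.11 in control colon. The proton-coupled transporters Slc16a1 and Slc16a3 had differences of -0.47 and 0.69, and their partner Bsg of 0.65. With so few genes a list, 1 gene moves the share far, and nothing particular to a list is read from it. The lists were described by their counts and medians, and what links them to the carbonic anhydrases was not tested.

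**Figure D4:**
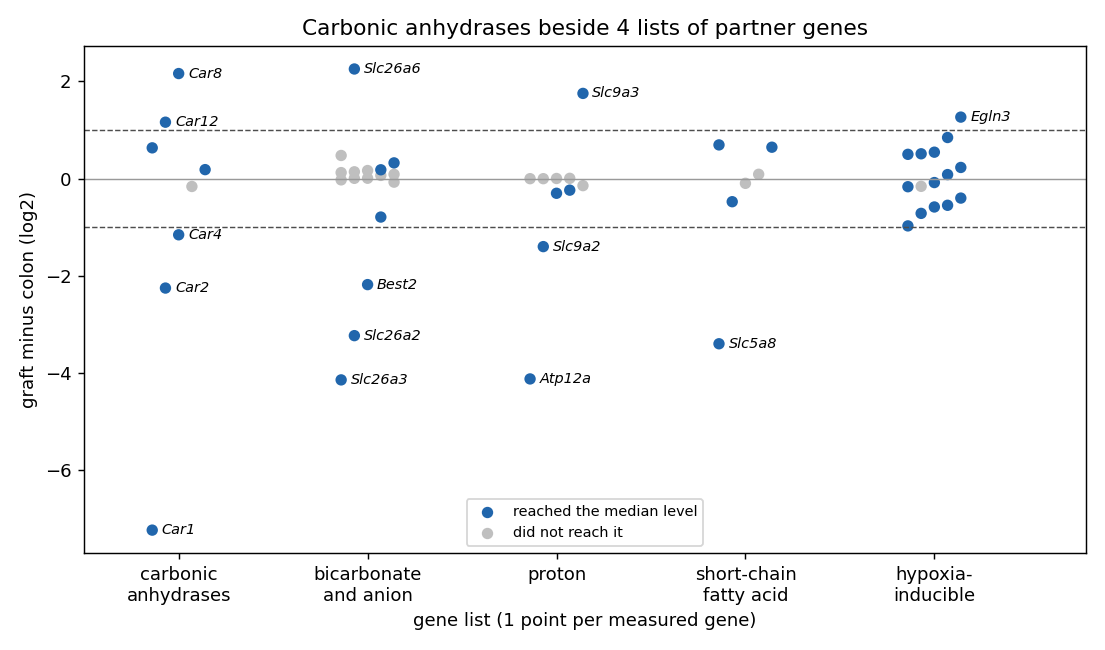
Difference between graft and colon (log2) of each measured gene, for the 8 carbonic anhydrases and for 4 lists of partner genes, with dashed lines at 2-fold and grey points for genes below the median level on both arrays. Names mark the genes past 2-fold, among which Car1 has the lowest value and Slc26a6 the highest, and only the hypoxia-inducible and short-chain fatty acid lists are without such genes on one side.

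The labels of both samples were set beside markers. These lists were chosen with earlier results of these data known, so they are no independent check of the labels. Slc26a3 and Atp12a among the colonocyte genes also belong to the transporter lists above. Of 8 small intestinal enterocyte genes, 7 passed 4-fold upward in graft epithelium, against 1.10% of all counted genes. Their median levels were 10.16 in graft epithelium and 4.86 in control colon. The exception was lactase, Lct, at 4.92 in graft epithelium and 4.64 in control colon. It did not reach the median level and so could not be counted. Of 8 colonocyte genes, 7 passed 4-fold downward in graft epithelium, against 1.37% of all counted genes. Their median levels were 4.89 in graft epithelium and 9.81 in control colon. The exception was Scnn1b, with a difference of -0.56, which did not reach the median level either. In the graft Cyp2c55 (4.46) and Slc6a14 (4.61) lay below the 20th percentile, as Car1 did, while Slc26a3 (6.76) and Ly6g (5.42) did not. The 7 markers of epithelium in general had a median difference of 0.54, and 0 of them passed 2-fold. Of all counted genes, 3.55% were 2-fold higher and 5.68% lower. In these bulk samples, fewer cells of a type and less RNA per cell cannot be told apart.

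Other cell types that carry carbonic anhydrases were described in the same way. Red blood cells are rich in Car1 and Car2. Only 4 of 13 red blood cell genes were measured, without the globins, and all stayed below the median level on both arrays, with a log2 summed level of 6.83 in graft epithelium and 6.80 in control colon. Capillary endothelium carries Car4, and of 7 endothelial genes 5 were below 0 and 2 above it, with a median difference of -0.067. Pecam1 had a difference of -0.29, and Egfl7, the only one that reached the median level, of 1.23. Fat and skeletal muscle carry Car3. The adipocyte gene Adipoq was at 4.55 in graft epithelium and 4.42 in control colon, and the list's 2 genes past 2-fold, Cidec at 2.43 and Pck1 at -2.19, are also expressed outside fat. Of 7 skeletal muscle genes, 7 smooth muscle genes, 5 enteric neuron genes and 6 leukocyte genes, 0 passed 2-fold. The medians were -0.0094, -0.30, -0.060 and 0.39. Of all counted genes, 3.55% were 2-fold higher and 5.68% lower. In the same order, 2, 6, 1 and 3 genes of these lists reached the median level, so the rest could not be counted. Of the leukocyte genes, 5 were above 0 and 1 below. The part of these cells in the carbonic anhydrase differences was not tested.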

How the data were processed

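Small amounts of total RNA from microdissected epithelium were amplified, labelled with biotin and measured on 2 single-channel arrays, 1 of the graft and 1 of the control colon, per the labels' protocols. The deposited table holds log2 levels of 24074 probe sets, with scale read from the values (4.19 to 13.37 in the graft, 4.22 to 13.46 in the colon). The array medians were 5.44 in graft epithelium and 5.43 in control colon. Software, background correction, normalization and centring behind the authors' log2 values stay unknown here (not given in the sources used here). No detection calls come with them, and having 2 arrays limits the precision.

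Of the probe sets, 18904 had exactly 1 gene symbol in the platform annotation. The brightest by mean of both arrays stood for each of 17305 genes. All 14 measured carbonic anhydrases were found in RefSeq's GRCm38.p6 gene table by Entrez identifier. Counts used a fold threshold of 2 and, as an alternative, 4, over the 9392 genes whose higher value reached the median. The counting procedure was checked on simulated columns with known changes. These changes were 4-fold, only in genes of higher level, with less noise than the spread between probe sets over all levels. The check therefore does not cover changes near 2-fold or values near the low end. With 1 array per group no statistical test between the groups was made. The other alternatives were quantile normalization, centring, averaged probe sets, probe sets with several symbols, a floor at the 20th percentile and no level filter.

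Named genes were the family, the genes of each list past 2-fold with up to 3 of its other members of highest level, and the 3 genes nearest to each member past 2-fold in both levels. The search for nearest genes left out other carbonic anhydrases and predicted genes. Flanking genes, promoter motifs, Pfkfb3, the 4 hypoxia-inducible genes named as below 0 and the markers named beyond their lists were chosen after values were seen. The members and lists were chosen with earlier results of these data known. Python 3.11.15, numpy 2.4.6, pandas 2.3.3 and matplotlib 3.10.9 were used.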

Additional observations from a re-analysis of the deposited data

How the results depend on the processing

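Quantile normalization, centring and a floor at the 20th percentile each left 3 carbonic anhydrases past 2-fold downward in graft epithelium and 2 upward. Centring shifted every difference by the same -0.0055, so it could not carry a member across 2-fold and says nothing about stability. Averaged probe sets could not change a member, since each has 1 probe set with exactly 1 symbol. Without the level filter only Car3 could have been added. Averaging and the missing filter thus say nothing about the members' stability. With probe sets of several symbols used as well, every member's difference stayed the same. Whether any such probe set names a member was not examined, so this setting too says nothing about their stability. At 4-fold, 2 were lower and 1 was higher, with 129 of all counted genes lower and 103 higher, because the threshold itself is stricter. Over the settings that rescale or floor values Car4 ranged from -1.16 to -1.04 and Car12 from 1.05 to 1.17, the members nearest to the 2-fold limit. Car9 stayed short of 2-fold, at 0.63 to 0.71. In 745 recomputed differences of single genes, 0 moved by more than the SD of 0.48 between probe sets and 0 past 2-fold changed sign. For genes with 1 probe set, averaging could not move the value, and centring shifted all genes alike. Both scalings moved the median of all genes by less than 0.1. No paired analysis was possible because each group is 1 array. Levels near the lower end, such as Car1 in the graft and Car12 in the colon, have no detection call, so their folds are not determined.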

Other observations

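For each carbonic anhydrase past 2-fold, the 3 genes with the most similar pair of levels over the 2 arrays were found by the Euclidean distance of both log2 values. Other carbonic anhydrases and predicted genes were left out of this search. Probe sets of different genes differ in affinity, and for Car1 and Car12 one of the 2 values is a tied value at the low end, so such likeness is no measure of equal expression, and with only 2 arrays it says little beyond the levels themselves. Nearest to Car1 were the transglutaminase Tgm3 at a distance of 1.05, the acute-phase gene Saa1 at 1.24 and Ly6g at 1.28. Among the genes searched, 0 thus lay within 1 of Car1. Saa1 and Ly6g have near-identical relatives, so their probe sets may also read those relatives. Nearest to Car2 were Tmem171, at 7.81 in graft epithelium and 9.59 in control colon, the calcium-binding S100a14 at 7.56 in graft epithelium and 9.52 in control colon, and the metallothionein Mt2 at 7.68 in graft epithelium and 10.27 in control colon. Car4 lay closest to Myl6, Rpl9 and Rpl10, abundant genes with differences of -0.56, -0.46 and -0.51, at distances of 0.50 to 0.53. Nearest to Car8 were Tm6sf2, which acts in lipoprotein lipidation, with a difference of 2.10, the MHC class II gene H2-Eb1 with 2.31 and the secreted protein gene Fam3c with 2.38. Nearest to Car12 were Mogat2, an enzyme of triglyceride resynthesis in small intestinal enterocytes, with a difference of 1.14, Glipr2 with 1.24 and Moxd1 with 1.08.

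The low values of Car1 and Car12 were not distinct numbers. The graft value of Car1 was 1 of 102 exactly equal values in the table, and the colon value of Car12 equalled the graft value of Car3, in a set of 170 equal values. Both values of Car14 belonged to a set of 98. Of the 48148 array values, 37.5% of those below the median gene level and 13.3% of those at or above it were shared with at least 1 other value. All values of Car2, Car4, Car8, Car9 and Car13 were unique. The origin of the equal values was not tested.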
